A study of Rattus norvegicus with 6 samples.

Results

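The immediate early genes *Fos*, *Fosb*, *Jun*, *Junb*, *Atf3*, *Egr1*, *Egr2*, *Nr4a1*, *Ier2* and *Dusp1* were followed in the skeletal muscle of newborn rats of low (LBW) and average (ABW) birth weight. The list was drawn up by gene name. RefSeq accessions gave 9 of the 10 genes a value on the array, each through 1 transcript, out of 26300 features in all. *Fosb* had no matched transcript and was not analysed here. RNA came from 3 LBW and 3 ABW pups, all male Wistar rats 1 day old and untreated, and each pup was measured on its own single-colour (Cy3) NimbleGen array. LBW pups lay between percentiles 5 and 25 of birth weight. ABW pups are the newborn controls of the sample titles, given as percentiles 25 to 75 in the sample characteristics and 50 to 75 in the treatment protocol. Soleus and gastrocnemius were pooled within a pup. The pups had been killed with an overdose of pentobarbital or urethane. The labels do not give the litter, the anaesthetic or the time of dissection for any pup, and the arrays therefore compare 3 animals with 3 without a known litter structure.

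Immediate early genes are the first to be transcribed when a cell receives a signal. They need no new protein, because the factors that switch them on, such as SRF with its partners at CArG boxes and CREB at cAMP response elements (CRE), are already in the nucleus and are activated by MAP kinases or protein kinase A. Most encode transcription factors with short-lived mRNAs, and their level in a tissue follows what happened to it shortly before it was frozen. In skeletal muscle they are known to respond to contraction, stretch, injury, adrenergic signals and refeeding.

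Values are normalized log2 signals, so that a difference of 1 is 2-fold. The 6 arrays had medians between 8.70 and 8.76. All 8 skeletal muscle markers with a row (of 11 listed) had a log2 signal of at least 13.27 in every pup, 0 passed the threshold, and their summed linear signal ran from 204025 to 222835 in LBW and from 205238 to 215130 in ABW pups. The LBW pups were not alike. Over all features LBW 2 correlated better with ABW 1 (Pearson r = 0.992 across features) than with LBW 3 (0.987), and the first principal component, with 43.1% of the variance, put LBW 1 and LBW 3 at 34.0 and 37.8 and LBW 2 at -0.3, against -31.2 to -11.9 for the ABW pups. Because whole muscle was extracted, fewer cells of a type and less RNA per cell cannot be told apart.

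*Nr4a1*, *Fos* and *Atf3* were higher in LBW muscle. *Jun* had lower values in all LBW pups without reaching the fold change set by the methods, and the other 5 genes overlapped between the groups. The threshold is that of the study's methods, an unadjusted p under 0.05 with a fold change of at least 1.5, here with limma. It was passed by 3 of the 9 genes (33.3%), all higher in LBW, compared to 4.27% of all 26300 features in either direction 2.38% with LBW higher and 1.89% with LBW lower. Benjamini-Hochberg adjustment of the limma test over the whole array left 0 of the 9 genes and 0.0% of the features under 0.05, with 0.214 as the smallest adjusted p of any feature. At an unadjusted p under 0.05 alone, 4 of the 9 genes and 12.4% of all features passed. The median log2 fold change of the 9 genes was 0.10, compared to -0.02 over all features, while the median of its absolute size was 0.46, compared to 0.13. The differences ran in both directions, with 6 genes above 0 and 3 below.

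**Figure D1:**
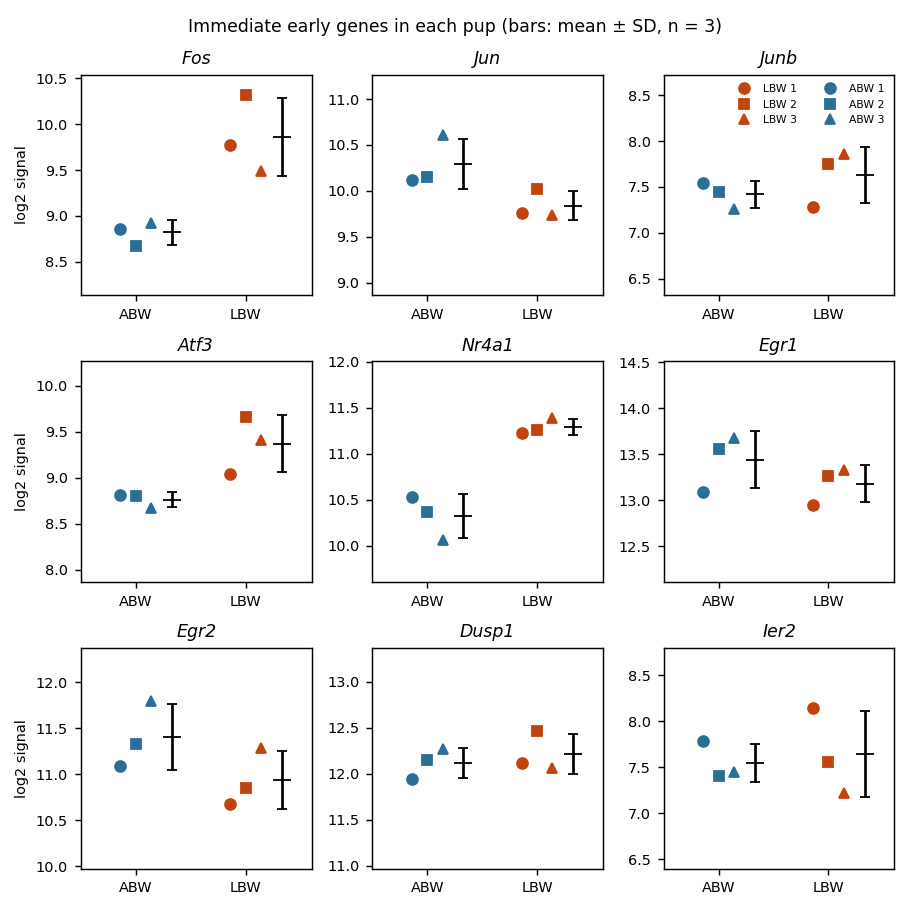
Log2 signal of the 9 immediate early genes in each pup (orange LBW, blue ABW; circle, square and triangle are pups 1, 2 and 3), with the mean and SD of each group of 3 as black bars; each panel spans 2.4 log2 units. *Fos*, *Atf3* and *Nr4a1* have all LBW pups above all ABW pups, *Jun* has all LBW pups below, and the other 5 genes overlap.

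The AP-1 factors are dimers of Fos, Jun and ATF proteins. *Fos* (NM_022197), which encodes a subunit that binds DNA only with a Jun partner, reached 9.77, 10.32 and 9.49 in the LBW pups 1, 2 and 3, against 8.86, 8.67 and 8.93 in ABW 1, 2 and 3. Every LBW pup was above every ABW pup, and the nearest pups, LBW 3 and ABW 3, were 0.56 apart, more than the SD of either group. The means were 9.86 ± 0.42 (SD, n = 3) and 8.82 ± 0.13 (SD, n = 3), a log2 fold change of 1.04 (SE 0.21, 95% interval 0.53 to 1.55, adjusted p = 0.25 by limma). *Fos* was the only one of the 9 genes to pass with a fold change of at least 2 (2.05). The threshold was passed with any 1 pup left out, with a log2 fold change between 0.81 (without LBW 2) and 1.22 (without LBW 3). The exact permutation test of the 6 values gave a 2-sided p of 0.1, the smallest that 3 pups against 3 allow.

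*Jun* (NM_021835), the subunit with which Fos pairs most often, had the opposite sign. It was at 9.76, 10.02 and 9.74 in LBW 1, 2 and 3 and at 10.12, 10.16 and 10.61 in ABW 1, 2 and 3. The groups did not overlap, but LBW 2 and ABW 1 were only 0.10 apart, less than the SD within either group. In limma the difference was -0.46 on the log2 scale (SE 0.16, 95% interval -0.84 to -0.07, adjusted p = 0.35), a ratio of 0.729 that is short of the threshold. It was -0.30 without ABW 3, and its unadjusted p by limma was over 0.05 without LBW 1 (0.08), LBW 3 (0.0782) or ABW 3 (0.0615). Across all features the groups did not overlap in 17.4%, with LBW higher in 7.27% and lower in 10.1%; among the 9 genes they did not overlap in 4, with LBW higher in 3 and lower in 1.

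*Atf3* (NM_012912), a stress-induced AP-1 partner that often represses its targets, was at 9.04, 9.66 and 9.41 in LBW 1, 2 and 3 and at 8.81, 8.80 and 8.67 in ABW 1, 2 and 3. All LBW pups were above all ABW pups, with LBW 1 the nearest, 0.23 above ABW 1. In limma the difference was 0.61 on the log2 scale (SE 0.16, adjusted p = 0.287), which is 1.53-fold and just past the required 1.5. It fell below that fold without LBW 2 (0.47) and without ABW 3 (0.56), so that its call rests on each of these pups, although its unadjusted p stayed under 0.05 with any pup left out. *Junb* (NM_021836), a Jun paralogue that is a weaker activator, was at 7.28, 7.75 and 7.86 in LBW and at 7.54, 7.45 and 7.26 in ABW pups 1, 2 and 3. LBW 1 lay beside the lowest ABW pup, and the 95% interval of the log2 fold change of 0.21 ran from -0.20 to 0.62, which leaves room for a 1.5-fold rise. Leaving out 1 pup gave 0.38 without LBW 1 (unadjusted p = 0.0238 by limma) and at the lowest 0.095 without LBW 3.

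*Nr4a1* (NM_024388) encodes Nur77, an orphan nuclear receptor that muscle induces after adrenergic signals and that takes part in the control of its glucose metabolism. It was at 11.23, 11.25 and 11.39 in LBW 1, 2 and 3 and at 10.54, 10.37 and 10.06 in ABW 1, 2 and 3. The LBW pups lay close together, and the lowest of them was 0.69 above the highest ABW pup. The means were 11.29 ± 0.09 (SD, n = 3) and 10.32 ± 0.24 (SD, n = 3), a log2 fold change of 0.97 (SE 0.14, 95% interval 0.64 to 1.30, adjusted p = 0.214 by limma, exact permutation p = 0.1, 2-sided). This is a fold change of 1.95 with an unadjusted p of 0.000294, the 28th smallest of all features. With each pup left out in turn, it passed the threshold every time, with a log2 fold change between 0.84 and 1.07. *Nr4a1* was the gene of the list with the smallest within-group spread (pooled SD 0.18).

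The promoter of *Nr4a1* is shown because this gene had the smallest p of the list and because the CREB and SRF elements of these promoters are textbook inputs of the family. The RefSeq promoter table of the assembly GRCr8 holds 250 bases before the start site for 7 of the 10 listed genes (not for *Fos*, *Jun* and *Atf3*), 6 of which also have a row on the array. The stretch of *Nr4a1* from base -250 to -31 before the start site (GRCr8 chr7:134259888-134260107, plus strand) carries the core letters of the CRE, TGACG or its reverse complement, at 4 places, shown in capitals.
*Nr4a1*: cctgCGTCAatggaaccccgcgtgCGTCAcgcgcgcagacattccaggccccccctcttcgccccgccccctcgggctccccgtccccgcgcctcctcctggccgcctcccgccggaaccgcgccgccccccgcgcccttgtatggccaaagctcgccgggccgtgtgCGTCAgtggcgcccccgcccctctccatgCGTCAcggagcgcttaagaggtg
All 4 are in the reverse orientation, starting at bases -246, -226, -82 and -53. The core occurs on either strand in 18.2% of the 33469 promoters of the table and in 6 of the 7 promoters of the list. *Nr4a1* also has a match to the EGR site GCGNGGGCG at base -73, found in 4.29% of all promoters, which overlaps none of the 4 cores. A match is a description of letters and says nothing about what binds there in muscle.

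*Egr1* and *Egr2* encode zinc finger factors that share their DNA site. *Egr1* (NM_012551) was at 12.95, 13.27 and 13.32 in LBW 1, 2 and 3 and at 13.09, 13.56 and 13.67 in ABW 1, 2 and 3. The groups overlapped, since ABW 1 was below LBW 2 and LBW 3, and the log2 fold change was -0.26 (95% interval -0.70 to 0.18, adjusted p = 0.614 by limma). It was -0.14 without LBW 1 or without ABW 3 and -0.44 without ABW 1 (unadjusted p = 0.0278 by limma). *Egr2* (NM_053633) was at 10.68, 10.85 and 11.29 in LBW and at 11.09, 11.33 and 11.79 in ABW pups 1, 2 and 3. Here LBW 3 lay within the ABW values and the other LBW pups below them. Its log2 fold change of -0.47 (95% interval -1.01 to 0.08, adjusted p = 0.467 by limma) was as large as that of *Jun*, with a wider spread. With 1 pup left out, its call appeared when that pup was LBW 3 (-0.64) or ABW 1 (-0.62) and in no other case. Both values were below 0, unlike those of *Fos* and *Nr4a1*, and neither passed the threshold with all 6 pups.

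The order of the pups was nearly the same for both genes. Of the 36 pairs of the 9 genes, 10 hold no gene whose groups are apart. In the other pairs a correlation over the 6 pups can restate the group difference. That difference can also enter these 10, since *Egr1* and *Egr2* were both lower on average in LBW pups. Among these 10, *Egr1* and *Egr2*, the pair with the highest r, had a Pearson r of 0.88 (exact permutation p = 0.0222, adjusted p = 0.283 over the 36 pairs) and a Spearman rho of 0.94 (exact permutation p = 0.0167, adjusted p = 0.2). Both were lowest in LBW 1 and highest in ABW 3, and r was 0.57 without these 2 pups. Leaving out the extremes narrows the range, so this cannot show how far the relation rests on them. With each value taken as the deviation from its group mean, r was 0.84. Of all 36 pairs, 4 had an exact permutation p under 0.05. The largest r in size was that of *Jun* and *Nr4a1*, whose groups are apart (-0.90, exact permutation p = 0.00556, adjusted p = 0.2). For deviations from the group means it was -0.85. The relation of *Egr1* and *Egr2* over the 6 pups did not pass the correction. The 70 bases from -120 to -51 of both promoters are shown because they are alike in layout, with CArG boxes and the CRE core in capitals (*Egr1* GRCr8 chr18:26736958-26737027, plus strand; *Egr2* GRCr8 chr20:21054492-21054561, minus strand).
*Egr1*: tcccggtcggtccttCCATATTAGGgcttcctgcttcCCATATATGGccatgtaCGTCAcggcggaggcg
*Egr2*: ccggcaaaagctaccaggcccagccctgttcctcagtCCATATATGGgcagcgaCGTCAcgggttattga
The same CArG letters begin at base -83 in both, followed by the CRE core at -66, and *Egr1* has another CArG box at -105. A CArG box occurs on either strand in 1.5% of all promoters of this length, and in 2 of the 7 of the list, *Egr1* and *Egr2*. Neither the AP-1 site TGANTCA nor the Nur77 site AAAGGTCA occurs in any of the 7, compared to 6.34% and 1.24% of all promoters.

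*Dusp1* and *Ier2* had group means within 0.10 of each other on the log2 scale. *Dusp1* (NM_053769) encodes a phosphatase that switches off the MAP kinases which induce the family. It was at 12.11, 12.46 and 12.06 in LBW and at 11.94, 12.15 and 12.27 in ABW pups 1, 2 and 3. The groups overlapped, and the 95% interval of its log2 fold change of 0.10 (-0.25 to 0.44, adjusted p = 0.83 by limma) lies within 1.5-fold in either direction. *Ier2* (NM_001009541), a nuclear protein of the early response, was at 8.15, 7.56 and 7.22 in LBW and at 7.78, 7.41 and 7.45 in ABW pups 1, 2 and 3. It had the widest within-group spread of the list (pooled SD 0.36), with LBW 1 the highest and LBW 3 the lowest of all 6 pups. Its log2 fold change was 0.09 (95% interval -0.49 to 0.68, adjusted p = 0.908 by limma). Without LBW 1 the value for *Ier2* was -0.16, and without LBW 2 that for *Dusp1* was -0.03. The promoters of these genes are the 2 of the list with the whole CRE, TGACGTCA, and are shown around it (*Dusp1*, GRCr8 chr10:17184718-17184747, and *Ier2*, GRCr8 chr19:40399293-40399322, both plus strand).
*Dusp1*: ggcagggcgggTGACGTCAccacccggtca
*Ier2*: gcgtggcgtttcagTGACGTCActcttact
The whole element, which contains the core on both strands, is in 1.59% of all promoters.

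**Figure D2:**
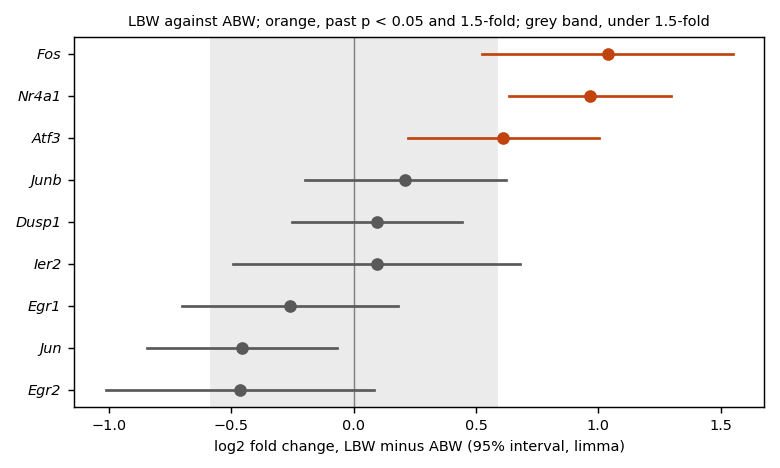
Log2 fold change of LBW over ABW for each of the 9 genes (point) with its 95% interval from limma (line), n = 3 pups per group; orange genes pass the unadjusted threshold and the grey band covers changes under 1.5-fold. *Fos* (1.04), *Nr4a1* (0.97) and *Atf3* (0.61) lie to the right of the band, and *Jun* (-0.46) and *Egr2* (-0.47) are the lowest and lie inside it.

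ABW 3 was the highest or the lowest pup for 6 of the 9 genes. LBW 2 was the highest pup for 3 of the 9 genes (*Fos*, *Atf3* and *Dusp1*), LBW 3 for 2 (*Junb* and *Nr4a1*), LBW 1 for *Ier2*, and ABW 3 for *Jun*, *Egr1* and *Egr2*. ABW 3 was the lowest for *Junb*, *Atf3* and *Nr4a1*. The median Pearson r over the 36 pairs of genes across the 6 pups was -0.06, with 17 positive and 19 negative pairs, compared to a median of 0.01 over the pairs of 2000 evenly spaced features of the array. With each value taken as the deviation from its group mean, so that the birth weight groups no longer contribute, the median was 0.11, compared to 0.01, and 19 of the 36 pairs were positive. These are descriptions over 6 pups with no test. *Fos* and *Jun*, opposite between the groups, deviated the same way within them (r = 0.62), whereas *Fos* and *Nr4a1*, both higher in LBW, did not (r = -0.33). *Fos* and *Atf3* were highest in LBW 2 and *Nr4a1* in LBW 3, although the LBW values of *Nr4a1* lay close together (SD 0.09). The spread of the 9 genes was wider than that of the median feature, since the pooled within-group SD of the 9 genes ran from 0.18 to 0.36 and the median over all features was 0.16.

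**Figure D3:**
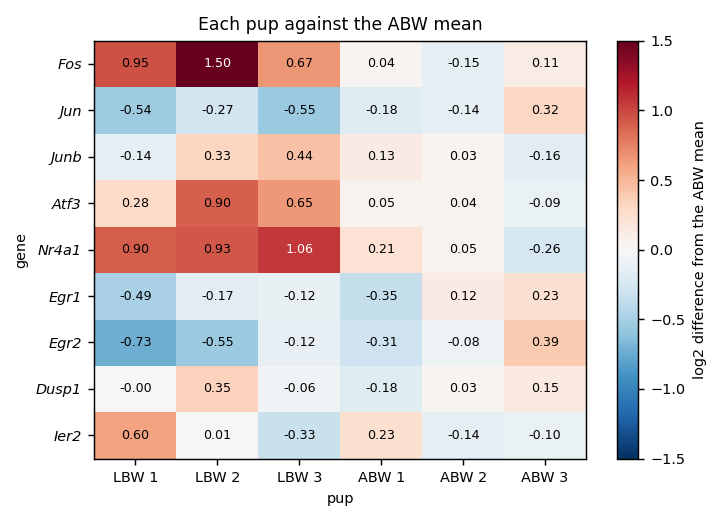
Difference of each pup from the ABW mean of the gene on the log2 scale (colour and printed value; red higher, blue lower), with genes in rows and the 6 pups in columns. The LBW columns are red for *Fos*, *Atf3* and *Nr4a1* and blue for *Jun*, *Egr1* and *Egr2*, and no column has a single colour down all 9 genes.

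Genes of other tissues moved with birth weight in the same arrays. Of 11 bone markers 10 had a row, 6 of these passed the threshold, all higher in LBW, and their summed linear signal was 35847, 4548 and 58042 in LBW 1, 2 and 3, compared to 2388 to 2891 in ABW pups. For neutrophil markers (3 of 8 with a row, all 3 past the threshold) it was 3334 to 8445 in LBW and 1142 to 1650 in ABW, for osteoclast markers (5 of 8 with a row, 2 higher) 8436 to 25011 and 8907 to 9603, and for cartilage markers (4 of 8, 1 higher) 11950 to 24292 and 11303 to 14148. Adipocyte markers (7 of 8, 2 lower) had 36870 to 45654 in LBW and 44595 to 61796 in ABW. Of all features, 2.38% passed the threshold higher and 1.89% lower in LBW pups. The study had printed *Ibsp*, *Bglap*, *Spp1*, *Alpl*, *S100a8*, *S100a9*, *Mmp8*, *Acp5*, *Mmp9*, *Acan*, *Lep* and *Pparg* among its top genes on these same arrays. Their calls are therefore not independent evidence. None of the endothelial (3 of 7 with a row), erythroid (3 of 7) and macrophage (5 of 7) markers passed, with sums of 10482 to 10936 against 10893 to 12114, 39364 to 41658 against 40323 to 44453, and 22705 to 24727 against 20740 to 28871. With 1 pup left out, 3 (without LBW 1) to 10 (without LBW 2) bone markers passed, all 3 neutrophil markers passed each time, and the osteoclast and cartilage calls held only without LBW 2, with 3 and 2 markers. The adipocyte count was 1 to 4, the 4 without ABW 1. Without LBW 2, 1 erythroid marker passed, lower in LBW. The deposited values hold no zeros and no detection call, so a marker cannot be called absent. LBW 2, whose bone markers averaged 0.51 above the ABW mean compared to 3.02 and 3.91 in LBW 1 and LBW 3, had the highest *Fos* and *Atf3* of all pups, and its *Nr4a1* was 0.93 above the ABW mean, against 0.90 and 1.06. In LBW 2 the bone sum (4548) and the neutrophil sum (3334) were both above the ABW range, and the adipocyte sum (45654) lay within it. The part of these markers in the differences of the immediate early genes was not tested.

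**Figure D4:**
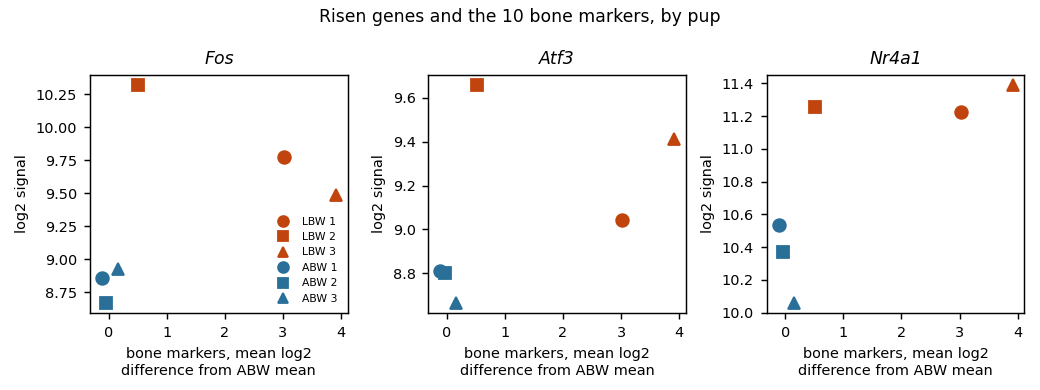
Log2 signal of *Fos*, *Atf3* and *Nr4a1* in each pup (vertical) against the mean log2 difference of the 10 bone markers from their ABW mean (horizontal); orange LBW, blue ABW, circle, square and triangle are pups 1, 2 and 3. LBW 2 (orange square) has bone markers at 0.51, left of LBW 1 at 3.02 and LBW 3 at 3.91, and is the highest point for *Fos* and *Atf3*.

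Most relatives of the 9 genes did not pass. Of 13 further AP-1, EGR and NR4A factors, 11 had a row, and only *Jdp2*, a repressor that pairs with Jun proteins, passed the threshold (0.60, SE 0.12, adjusted p = 0.239 by limma). It was at 8.59, 8.27 and 8.51 in LBW and at 7.91, 7.74 and 7.93 in ABW pups 1, 2 and 3, and the groups did not overlap. It lost the call without LBW 1, without LBW 3 or without ABW 2, and *Fosl2* gained one without LBW 1, without LBW 2 or without ABW 3. *Fosl2* (0.52) and *Jund* (0.30), an AP-1 subunit of each kind, were also higher in every LBW pup but under 1.5-fold, and are named after their values were seen. *Nr4a2* (0.20) and *Nr4a3* (-0.01), the paralogues of *Nr4a1*, overlapped between the groups, as did *Egr3* (-0.06) and *Egr4* (0.06). *Atf4* (0.08) and *Atf2* (-0.20), the genes of this list with the strongest signal, did too. The median over the 11 was 0.08.

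Among 41 other primary response genes, 36 had a row, of which 3 passed the threshold higher (2.38% of all features) and 1 lower (1.89% of all features) in LBW pups, and the median log2 fold change was 0.15, compared to -0.02 over all features. *Sik1*, a salt-inducible kinase that CREB induces and that feeds back on it, was at 11.83, 11.88 and 11.78 in LBW and at 11.37, 11.25 and 10.95 in ABW pups 1, 2 and 3. As with *Nr4a1*, its LBW pups were close together and clear of the ABW pups, and limma gave a log2 difference of 0.64 (SE 0.12, adjusted p = 0.243). *Cebpd*, an early factor of fat and acute phase responses, was higher by 0.73, and *Zfp36*, which shortens the life of early mRNAs, by 0.63. *Ccl2*, a monocyte chemokine, fell by 0.67 with overlap, since LBW 3 at 11.39 lay among the ABW pups. *Cebpd* lost its call without LBW 2, *Sik1* without ABW 3, and *Zfp36* without any pup other than LBW 3. The call of *Ccl2* held only without LBW 3. With 1 pup left out, between 1 gene (without ABW 3) and 5 genes (without LBW 3) were higher. At an unadjusted p under 0.05 alone there were 9 of the 36, 7 of them higher, beside 12.4% of all features in either direction. The strongest signals of the list, *Plk2* (-0.13) and *Rnd3* (-0.0025), overlapped, as did *Il6* (0.06) and *Ptgs2* (-0.47), early genes of inflammation.

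The kinases and factors upstream were close to level. Of 28 listed, 15 had a row, and only *Rps6ka1*, a kinase downstream of ERK, passed the threshold. It was at 8.36, 8.55 and 8.43 in LBW and at 8.86, 9.17 and 9.39 in ABW pups 1, 2 and 3, and fell by 0.70 (SE 0.15, adjusted p = 0.25 by limma), a call lost only without ABW 3. *Mapk3*, which encodes ERK1, was at -0.25 and *Nras* at 0.04, both short of the threshold. None of the 8 MAP kinase phosphatases and feedback inhibitors with a row (of 14) passed, and 0 had an unadjusted p under 0.05, with *Spry2* at 0.05 and *Spred1* at 0.02. mRNA levels of kinases say nothing about their activity, which was not measured on the arrays.

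**Figure D5:**
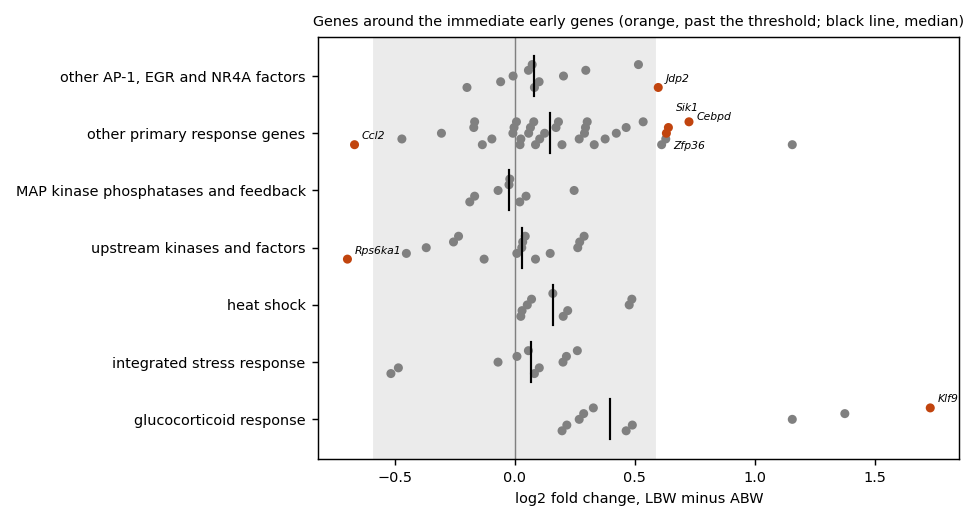
Log2 fold change of LBW over ABW (horizontal) for each gene with a row in 7 lists around the immediate early genes (points; orange and named where past the unadjusted threshold, grey band under 1.5-fold, black line the median of the list). Most genes lie inside the band, and the glucocorticoid list has the highest median (0.40), with *Klf9* at 1.73.

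Lists of stress genes were set beside the family. Of the heat shock list, 9 of 11 genes had a row, all 9 had a log2 fold change above 0 with a median of 0.16, and 0 passed the threshold. The co-chaperone *Bag3* (0.49) and the small heat shock protein *Hspb8* (0.48), which work together in muscle, did not overlap between the groups and had an unadjusted p under 0.05. They were the only 2 of the 9 to do either, beside 17.4% of all features without overlap and 12.4% with such a p by limma. The inducible *Hspa1a* (0.22) overlapped, as did *Hspa8* (0.05) and *Hspe1* (0.03). In the integrated stress response, through which *Atf3* is induced by ATF4, 10 of 12 genes had a row, 0 passed the threshold and the median was 0.07. *Ddit3*, the CHOP factor that usually rises with *Atf3*, was at 9.42, 9.48 and 9.20 in LBW and at 9.68, 9.89 and 9.99 in ABW pups 1, 2 and 3. It was thus lower in every LBW pup (-0.48, SE 0.12, unadjusted p = 0.00656 and adjusted p = 0.276 by limma), opposite to *Atf3*, though under 1.5-fold. Whether the integrated stress response has a part in the difference of *Atf3* was not tested. *Hspa5* (0.22) and *Atf4* (0.08) were the genes of that list with the strongest signal.

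All 10 genes of the glucocorticoid list had a row and a log2 fold change above 0, with a median of 0.40, and *Klf9* passed the threshold (1.73, SE 0.33, adjusted p = 0.238 by limma). The study printed *Klf9* among its top genes on these same arrays, so that it is not independent evidence. LBW 1 and LBW 2 had 10.07 and 10.12 for *Klf9*, LBW 3 had 8.93, and the ABW pups had 7.73 to 8.18. For *Per1*, an early gene that both glucocorticoids and CREB induce, LBW 1 (11.02) and LBW 2 (11.07) were high, and LBW 3 (9.14) lay among the ABW pups (8.91 to 9.49). *Zbtb16* divided the LBW pups in the same way, with 10.83, 10.57 and 8.55 against 8.43 to 8.80. Without LBW 3, 4 of the 10 genes passed (*Klf9*, *Per1*, *Zbtb16* and *Tsc22d3*), against 1 without any other pup. Of all 26300 features, 1224 passed without LBW 3. *Fos* and *Klf9* were both lowest among the LBW pups in LBW 3, where each was still above every ABW pup. The *Klf9* values of LBW 1 and LBW 2 lay too close together to be ordered. *Atf3* went otherwise, with LBW 1 the lowest LBW pup. The LBW values of *Nr4a1* (11.23 to 11.39) lay too close together for their order to be read. Whether the glucocorticoid genes have a part in the differences of the immediate early genes was not tested. *Cdkn1a* (0.20) and *Pdk4* (0.33) had the strongest signals of the list and did not pass.

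The genes whose values over the 6 pups followed the mean of the 9 immediate early genes most closely were *Mc5r* (Pearson r = 0.92), *Kng2* (0.92), *Saxol1* (0.88), *Or2n1g* (0.88) and *Lalba* (0.87), out of 1091 named features with a range of at least 1. Only 2 of the 1091 reached 0.9. The genes named here were dim, with values below the median level of all features (8.70) in every pup. Since the 9 genes went in different directions, their mean ranged only from -0.14 to 0.23 over the pups, highest in LBW 2 and lowest in ABW 1, and it stands for no single member.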

How the data were processed

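The authors hybridized total RNA of 6 pups to NimbleGen rat arrays (5 probes per transcript, design after RGSC3.4), used their own R code and Bioconductor for normalization and deposited log2 values, 1 per transcript and pup, for 26419 rows. The submitters' processing notes name RMA without a role or version, and the background correction and detection calls are not given in the sources used here. Values already contain this normalization. Rows were named by RefSeq accession from a gene table of the assembly GRCr8 (9740 rows, 36.9%), and rows of a symbol were averaged, which left 26300 features.

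The test between LBW and ABW pups was that of limma 3.58.1 under R 4.3.3 (lmFit, then eBayes, 2-sided, no filter, adjustment over all features), checked on simulated arrays. Exact permutation tests and correlations were computed with Python 3.11.15. Where nothing else is stated, a gene passes if it differs 1.5-fold or more with an unadjusted p under 0.05. Pups are separate animals of unstated litters, so p-values measure the spread between these pups, arrays carry no count depth, and their number limits the precision.

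The members, the gene lists and the alternatives were chosen with earlier results of these data known. Named are the members, up to 6 genes of each list past the threshold and its 2 with the strongest signal, and the 5 genes most like the mean of the members. Others are named after their values were seen. No p was adjusted over a list, and no list was tested as a set.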

Additional observations from a re-analysis of the deposited data

How the results depend on the processing

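The count of 3 immediate early genes past the threshold changed by more than 1.5 times only with a fold change of at least 2 (1) and after adjustment (0), and was 2 to 4 with 1 pup left out. It was 2 with array weights, where *Atf3* was at 0.57, and 3 under the remaining alternatives. Among these was an ordinary 2-tailed t-test, which the study names in its general statistics and not for the arrays. Taking the brightest row of a symbol could not change the 9 genes, each with 1 row. Alternatives that alter only the test leave the fold changes as they were. Of all features, 1124 passed, 584 by the ordinary t-test, 335 at a fold change of at least 2, 0 after adjustment, and 798 to 1546 with 1 pup left out. The median log2 fold change of the 9 genes was 0.1102 to 0.211 (without ABW 1) with 1 pup left out, and the median correlation of their pairs -0.208 (without LBW 2) to 0.0662 (without LBW 3), with 0.0493 without ABW 3. *Fos*, *Nr4a1* and *Atf3* kept their direction under every alternative run. *Ier2* and *Dusp1*, which did not pass, changed sign without LBW 1 (-0.1604) and without LBW 2 (-0.0297), with ranges up to 0.3046 and 0.1713, and the cause was not tested. Setting each LBW pup alone against the ABW mean, and leaving out pups in the gene lists, were added after seeing the data.

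The labels do not say that a replicate number marks a litter or day. Deviations from the group means correlated at 0.0873, 0.104 and 0.0552 between pups of equal number and at -0.096 to 0.0211 between the others, so that each pup correlated best with its own number, a hint from the data that stayed short of the pairing rule (each pair over 0.1). In a fit with the number as a replicate block, 1230 features passed, 1069 of them shared, and 3 immediate early genes. The median log2 fold change of the 9 was 0.0955 as before. With 1 LBW and 1 ABW pup per number, this fit could not change it. The block gave *Egr2* an unadjusted p of 0.0046 by limma in place of 0.083 and *Egr1* one of 0.0503 in place of 0.205, with array weights *Egr2* had 0.0398, and both genes stayed under 1.5-fold. By the ordinary t-test the p of *Jun* was 0.0673. How far a dim signal lies above background is unknown, which touches *Junb* and *Ier2*, below the median level of all features (8.70). Some genes of the lists were dimmer still, such as *Il6* (mean log2 signal 5.31), *Nr4a3* (5.43) and *Egr4* (6.07). The lowest deposited value was 4.58, and the overlap of such dim genes between the groups says little.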
